A study of Mus musculus with 18 samples.

Results

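Cdkn2a, the tumor suppressor gene that encodes p16 and p19, lies on mouse chromosome 4 among genes of unrelated function, and 8 of these neighbors are described here: Haus6, Plin2, Mllt3, Focad, Hacd4, Klhl9, Dmrta1 and Elavl2. They were chosen by name and position, not by their levels, out of 35275 genes in the count table, with earlier results of these data known. Of the 8 names, 7 were found as written, and Hacd4 was found by its Ensembl identifier under its older name Ptplad2. RNA was sequenced from 18 cultures of 6 untreated cell lines, each grown from a separate malignant peripheral nerve sheath tumor (MPNST) of a wild-type 129 Sv/Jae mouse. In 3 lines the tumor was started by an adenovirus in the sciatic nerve that carried Cas9, driven by the CMV promoter, with guides against Nf1 and p53 (Nf1/p53 dKO). In the other 3 lines the guides were against Nf1 and Cdkn2a, with separate guides for p16 and p19 (Nf1/Cdkn2a dKO). All 6 lines therefore share the targeting of Nf1, none is a normal nerve, each genotype is known from 3 tumors only, and the lines had been passaged at least 20 times. The question was whether the neighbors of Cdkn2a were lower together in any Nf1/Cdkn2a dKO line, as a large deletion around the cut sites would give.

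Double-strand breaks made by Cas9 are usually repaired with small insertions or deletions, but larger losses that take in neighboring genes also occur. In human tumors the CDKN2A locus is often lost as a block, together with MTAP and with genes on either side of it. A gene removed from every copy in every cell gives no reads, and loss of one of a pair of copies is commonly seen as a reduced level across a run of neighboring genes. In bulk RNA, fewer cells that express a gene and less RNA per cell cannot be told apart.

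In map order on GRCm38, the positions are those of GENCODE M21. Haus6, a subunit of the augmin complex that seeds microtubules within the spindle, lies at chr4:86578855-86612055 on the minus strand. Plin2, which coats lipid droplets, follows at chr4:86648386-86670060 on the minus strand. Mllt3, a YEATS-domain reader of acylated histones and a partner of the super elongation complex, covers chr4:87769925-88033364 on the minus strand. Focad, a focal adhesion gene whose product also stabilizes the SKI complex of RNA decay, covers chr4:88094629-88411011 on the plus strand. Hacd4, of the dehydratases that make very-long-chain fatty acids, covers chr4:88396144-88438928 on the minus strand. Focad and Hacd4 share 14868 bases on opposite strands, and because the strand setting of the counting is not given, reads from the shared stretch cannot be assigned with certainty to either gene. Klhl9, an adaptor of the CUL3 ubiquitin ligase, lies at chr4:88718292-88722465 on the minus strand. On the other side of Cdkn2a lie Dmrta1, a transcription factor gene of the DMRT family, at chr4:89679436-89694772 on the plus strand, and Elavl2, which encodes a neuronal RNA-binding protein, at chr4:91250763-91400785 on the minus strand. From the edge of Cdkn2a, the nearest of the 8 was Dmrta1 at 384.8 kb and the farthest Haus6 at 2662.4 kb.

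The promoters of the neighbor that differed most between lines and of the one that differed least are shown, because their ranges bound those of the other 6. The windows hold 250 bases before and 50 after the RefSeq start (GRCm38.p6), 5′ to 3′, with CG dinucleotides in capitals. The Dmrta1 window is chr4:89687948-89688247 on the plus strand and the Haus6 window is chr4:86612006-86612305 on the minus strand. The RefSeq start of Dmrta1 lies downstream of its GENCODE start at 89679436, so its window is inside the span given above.
Dmrta1: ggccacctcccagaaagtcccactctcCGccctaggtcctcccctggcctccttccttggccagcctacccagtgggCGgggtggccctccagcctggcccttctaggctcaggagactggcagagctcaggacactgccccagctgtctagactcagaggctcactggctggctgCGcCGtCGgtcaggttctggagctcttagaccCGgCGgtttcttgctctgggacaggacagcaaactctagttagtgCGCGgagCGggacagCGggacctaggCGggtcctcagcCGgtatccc
Haus6: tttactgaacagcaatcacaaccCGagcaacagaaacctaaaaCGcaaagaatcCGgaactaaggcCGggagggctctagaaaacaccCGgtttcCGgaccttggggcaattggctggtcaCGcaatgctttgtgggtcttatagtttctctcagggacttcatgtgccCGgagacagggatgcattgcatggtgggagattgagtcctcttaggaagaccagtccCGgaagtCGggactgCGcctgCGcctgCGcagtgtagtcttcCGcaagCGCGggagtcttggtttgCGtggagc
The Dmrta1 window holds 13 CG dinucleotides and the Haus6 window 17. Over the 14 RefSeq windows of the 8 genes the median was 17.5, and over all 32851 windows of the reference it was 7. The motif TATAAA was searched on both strands and occurred in 0 of the 14 windows, against 13.6% of all windows. Elavl2 has more of the 14 windows than any other of the 8 genes, several of them overlapping, so the median and the motif count weigh it most.

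Library totals were 19560535 to 28312207 counts, and the 3 cultures of a line, summed, gave 65206479 to 73065228. Levels are given in CPM (counts scaled to the library total, with TMM factors), and the line is the unit of the tests unless cultures are named, since cultures of the same line come from 1 tumor. Trp53, the target in the Nf1/p53 dKO, was 94.1, 67.5 and 58.7 CPM in Nf1/p53 dKO lines, against 246.9, 246.0 and 184.8 CPM in Nf1/Cdkn2a dKO lines (log2 fold change 1.62 ± 0.23 SE, edgeR adjusted p = 0.0361), a call kept without Nf1/p53 dKO line 1 and lost without any other line (adjusted p = 0.0671 to 0.124). Nf1 was 27.7 to 70.0 CPM in the former and 12.7 to 38.3 CPM in the latter. Sox10, the defining marker of the Schwann lineage, was at most 0.0989 CPM in every line, and the summed level of 6 Schwann lineage markers was 8.34 to 72.9 CPM in Nf1/p53 dKO lines, against 5.87 to 62.1 CPM in Nf1/Cdkn2a dKO lines. Vim, a mesenchymal marker, was 4727 to 10210 CPM. The leukocyte markers summed to at most 8.15 CPM. The sum of 3 skeletal muscle markers was 291.3 CPM in Nf1/p53 dKO line 3 and at most 23.5 CPM elsewhere.

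All 8 neighbors were counted in all 18 libraries, so none was at 0 in any culture. The lowest count was 4, for Elavl2 in Nf1/p53 dKO line 2, and the lowest in an Nf1/Cdkn2a dKO library was 18, for Elavl2 in line 3. Per kilobase of exon, Plin2 had the highest mean level over the 6 lines (62.8 CPM per kb). Klhl9 (13.5), Haus6 (8.45), Mllt3 (7.62), Focad (2.37), Hacd4 (2.13), Dmrta1 (0.997) and Elavl2 (0.382 CPM per kb) followed. Over the lines of a genotype, the share of the variance in log2 CPM that lay between lines rather than between cultures ran from 55.0% for Haus6 to 99.4% for Plin2.

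**Figure D1:**
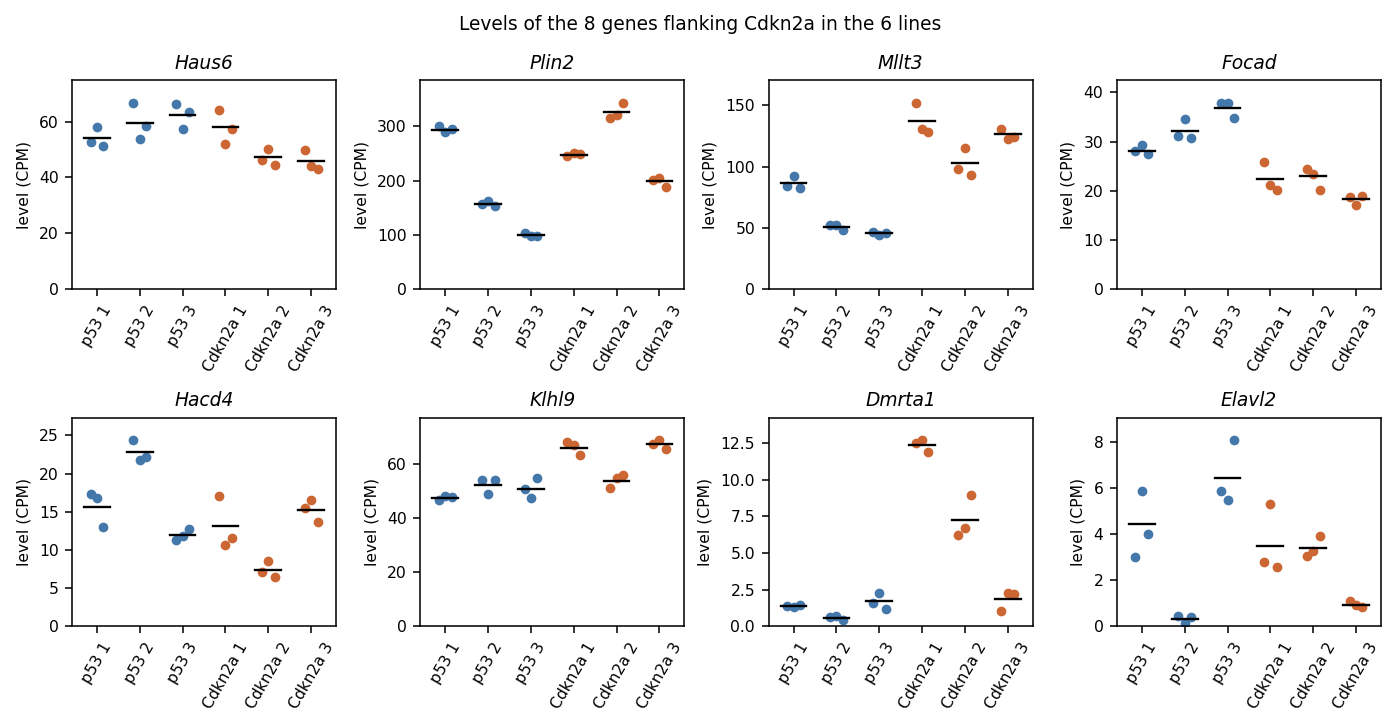
Levels of the 8 genes in CPM (vertical axes, linear from 0) in the 3 Nf1/p53 dKO lines (blue, p53 1 to 3) and the 3 Nf1/Cdkn2a dKO lines (orange, Cdkn2a 1 to 3), with points for the 3 cultures and a bar for the summed line. No Nf1/Cdkn2a dKO line is the lowest for all genes, and Klhl9 and Haus6 vary least between lines.

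Klhl9, the nearest neighbor on the Haus6 side, was 66.1, 53.8 and 67.6 CPM in Nf1/Cdkn2a dKO lines 1, 2 and 3. In the Nf1/p53 dKO lines it was 47.4, 52.2 and 51.0 CPM. All 3 Nf1/Cdkn2a dKO lines thus lay above the Nf1/p53 dKO lines, by a narrow margin for line 2. The log2 fold change of 0.32 ± 0.14 (SE) did not pass the test (edgeR quasi-likelihood test with Benjamini-Hochberg adjustment over all genes, adjusted p = 0.254), and its 95% interval was -0.03 to 0.66.

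Dmrta1, the nearest on the other side, was 12.3, 7.23 and 1.85 CPM in Nf1/Cdkn2a dKO lines. It was 1.39, 0.594 and 1.70 CPM in Nf1/p53 dKO lines. The groups did not overlap, but Nf1/Cdkn2a dKO line 3 was close to the Nf1/p53 dKO lines, and its cultures (1.09 to 2.29 CPM) overlapped theirs (0.444 to 2.28 CPM). The log2 fold change was 2.54 ± 0.76 (edgeR adjusted p = 0.121, 95% interval 0.73 to 4.34).

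Elavl2 was low throughout and varied more than 10-fold between lines of one genotype. Its level was 4.43, 0.340 and 6.46 CPM in Nf1/p53 dKO lines, against 3.48, 3.39 and 0.954 CPM in Nf1/Cdkn2a dKO lines. The lowest line was therefore Nf1/p53 dKO line 2, where the 3 cultures held 4 to 11 reads each, and the second lowest was Nf1/Cdkn2a dKO line 3 with 18 to 24 reads a culture. The log2 fold change between genotypes was -0.52 ± 0.98 (edgeR adjusted p = 0.783), and it was 0.14 without Nf1/p53 dKO line 3.

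Mllt3 was 137.0, 102.6 and 126.3 CPM in Nf1/Cdkn2a dKO lines. In the Nf1/p53 dKO lines it was 86.3, 50.9 and 45.5 CPM. Every Nf1/Cdkn2a dKO line was above every Nf1/p53 dKO line (log2 fold change 1.00 ± 0.27, edgeR adjusted p = 0.102, 95% interval 0.35 to 1.65). Without Nf1/p53 dKO line 1 the difference passed the threshold (edgeR log2 fold change 1.34, adjusted p = 0.0486).

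Focad, the next of the 8 after Mllt3, had a fold change of the other sign. Its level was 22.3, 22.9 and 18.3 CPM in Nf1/Cdkn2a dKO lines and 28.2, 32.2 and 36.9 CPM in Nf1/p53 dKO lines. Again the groups did not overlap (log2 fold change -0.61 ± 0.18, edgeR adjusted p = 0.117). The 95% interval was -1.04 to -0.18, so that its lower end passed a halving.

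Hacd4, which overlaps Focad, was 13.1, 7.43 and 15.3 CPM in Nf1/Cdkn2a dKO lines and 15.6, 22.8 and 11.96 CPM in Nf1/p53 dKO lines. Its extremes were both replicate line 2, the highest in the Nf1/p53 dKO and the lowest in the Nf1/Cdkn2a dKO, and the groups overlapped (log2 fold change -0.49 ± 0.36, edgeR adjusted p = 0.464). Where Hacd4 was lowest, Focad was 22.9 CPM, its highest level in the Nf1/Cdkn2a dKO lines.

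The pair farthest from Cdkn2a on the Haus6 side overlapped between genotypes. Plin2 was 247.8, 326.4 and 199.0 CPM in Nf1/Cdkn2a dKO lines and 293.5, 157.4 and 99.1 CPM in Nf1/p53 dKO lines (log2 fold change 0.49 ± 0.41, edgeR adjusted p = 0.515). Haus6 was 58.0, 47.2 and 46.0 CPM in the former and 54.1, 59.7 and 62.3 CPM in the latter (log2 fold change -0.22 ± 0.15, edgeR adjusted p = 0.43, 95% interval -0.57 to 0.14).

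Between genotypes, then, 0 of the 8 genes were called higher or lower by edgeR, while 0.638% of the 15207 genes tested were called higher in the Nf1/Cdkn2a dKO and 1.16% lower. At an unadjusted p under 0.05 the edgeR count was 3 of 8 (Dmrta1, Mllt3 and Focad), against 3400 of all genes. The fold changes were positive for 4 of the 8 and negative for 4, with a median of 0.05, beside -0.02 over all genes. There was no overlap between the genotypes for 4 of the 8, against 31.4% of all genes. The call depended on the tool: DESeq2 on the same 6 lines called Dmrta1 and Mllt3 higher and Focad lower (3 of 8, against 14.4% of all genes). On the 18 cultures, limma-voom that took the line as a random term called Mllt3 and Focad (2 of 8, against 16.6%). edgeR with cultures taken as separate samples, which counts cultures of a tumor as independent, called 5 of 8 against 46.5% of all genes.

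**Figure D2:**
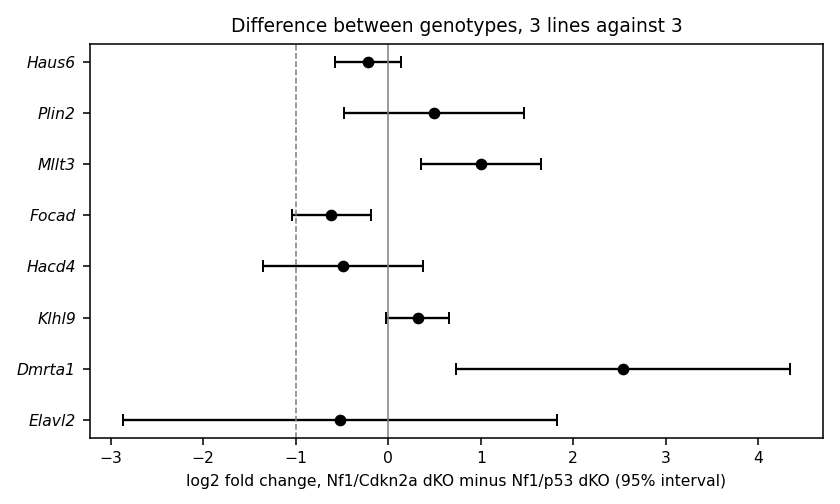
Log2 fold change between genotypes (horizontal axis, Nf1/Cdkn2a dKO minus Nf1/p53 dKO, 3 lines each) for the 8 genes in map order from Haus6 to Elavl2, with 95% intervals from the edgeR fit. The solid line marks no difference and the dashed line a halving. The intervals of Dmrta1 and Mllt3 lie above 0 and that of Focad below it before adjustment over all genes.

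A deletion in a single tumor would be diluted in a comparison of genotypes, so each line was next set against the other 5. In no line were the 8 genes lower together. By edgeR, 0 of 8 were called lower in each of the 6 lines, but this test called almost nothing anywhere: 0% of all genes in 5 lines and 0.00658% (1 gene) in Nf1/Cdkn2a dKO line 2. At an unadjusted p under 0.05, edgeR had Elavl2 lower in Nf1/p53 dKO line 2, Plin2 in Nf1/p53 dKO line 3 and Hacd4 in Nf1/Cdkn2a dKO line 2. In the same lines 255, 1550 and 410 of all genes were lower at that p, and in the remaining lines 181 to 262.

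Levels were therefore also read as a share of the median of the other 5 lines, without a test. In Nf1/Cdkn2a dKO line 1, 0 of 8 genes were below 0.5, against 6.19% of all genes with a median of at least 1 CPM. The lowest there was Focad at 79.2% and the highest Dmrta1 at 725%. In Nf1/Cdkn2a dKO line 2, 1 of 8 was below 0.5 (Hacd4 at 48.7%), against 8.67% of all genes. Its neighbors Focad and Klhl9 stood at 81.4% and 103% in that line, and Dmrta1 at 425%. In Nf1/Cdkn2a dKO line 3, 1 of 8 was below 0.5 (Elavl2 at 27.4%), against 5.77% of all genes. Dmrta1, the next of the 8 toward Cdkn2a, was at 108% in line 3, although with the other lines of its own genotype as the reference Dmrta1 was also below 0.5 there. Tusc1, the next tested gene beyond Elavl2 at 4039.5 kb from Cdkn2a, was at 31.4% in line 3. Its level there was 3.13 CPM, against 11.2 and 15.2 CPM in Nf1/Cdkn2a dKO lines 1 and 2. Cdkn2b, between Cdkn2a and Dmrta1, was at 126% in line 3. A shared cause of the low Dmrta1, Elavl2 and Tusc1 was not tested.

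Of the 7 values below 0.5, 5 were in Nf1/p53 dKO lines, where Cdkn2a was not targeted. In Nf1/p53 dKO line 1, 0 of 8 were below 0.5 (background 4.15%). In Nf1/p53 dKO line 2 there were 3 of 8 (background 5.87%): Elavl2 at 9.75%, Dmrta1 at 32.2% and Mllt3 at 49.7%. Elavl2 and Dmrta1 are next to each other on the map, but Mllt3 is separated from them by Focad at 140%, Hacd4 at 173% and Klhl9 at 97.0%. In Nf1/p53 dKO line 3 there were 2 of 8 (background 12.3%), Plin2 at 40.0% and Mllt3 at 44.3%, while Focad reached 161% and Elavl2 191%. Below 0.1 of the median there was 1 value in all, Elavl2 in Nf1/p53 dKO line 2 (background 0.597%). The other 5 lines had 0 of 8 below 0.1, against 0.261%, 1.8%, 1.18%, 2.04% and 0.942% of all genes in Nf1/p53 dKO lines 1 and 3 and Nf1/Cdkn2a dKO lines 1, 2 and 3. Ngfr, a Schwann lineage marker, was 64.3 CPM in Nf1/p53 dKO line 2 and at most 1.139 CPM in the other lines; its part in the low Elavl2 and Dmrta1 was not tested.

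**Figure D3:**
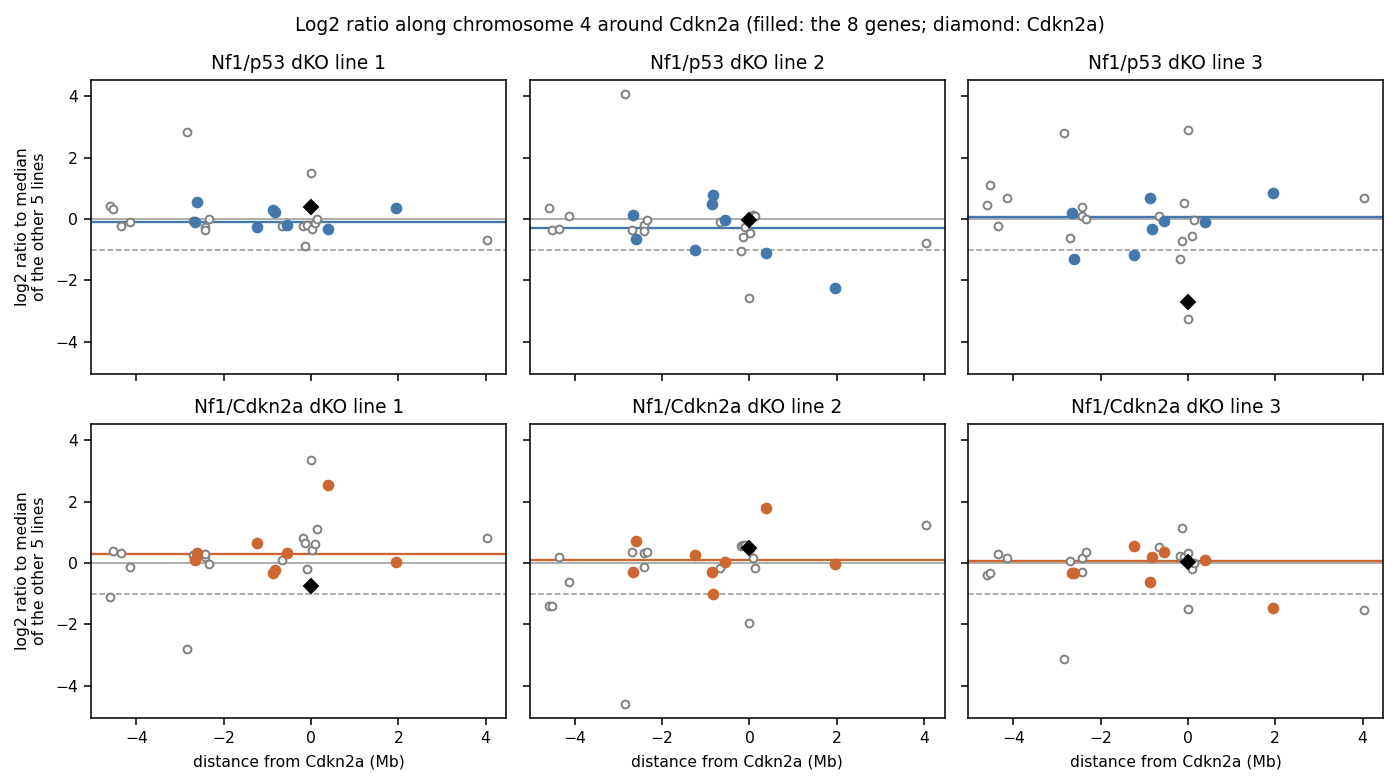
Log2 ratio of each line to the median of the other 5 lines (vertical axis) against distance from Cdkn2a on chromosome 4 in Mb (horizontal axis), for the tested genes within 5 Mb. Filled circles are the 8 genes, open circles other genes and the diamond Cdkn2a; the colored line is the median of the 26 genes other than Cdkn2a, the dashed line a halving. In the Nf1/Cdkn2a dKO lines these medians are 0.30, 0.10 and 0.09, and no run of low genes on both sides of Cdkn2a is seen. In line 3, Elavl2 and Tusc1, the tested genes farthest from Cdkn2a on the Dmrta1 side, both lie below the dashed line. On the Haus6 side, Adamtsl1 lies below it in lines 1, 2 and 3, Bnc2 in lines 1 and 2, Gm12415 in line 2 and Gm12606 in lines 2 and 3.

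The repeat cultures gave the differences between lines a smaller error, with the limit that they measure each line and not its genotype. In edgeR on the 18 cultures, with each line against the mean of the other 5, the number of the 8 genes called lower was 2, 4 and 4 in Nf1/p53 dKO lines 1, 2 and 3, against 25.4%, 27% and 34.6% of all genes. It was 1, 3 and 4 in Nf1/Cdkn2a dKO lines 1, 2 and 3, against 22.1%, 29.3% and 29%. In Nf1/Cdkn2a dKO line 1 the gene called was Focad, with a difference of -0.27 ± 0.08 (SE, log2). Nf1/Cdkn2a dKO line 2 had Hacd4 at -1.05 ± 0.13 and Focad and Haus6 each at -0.24. In Nf1/Cdkn2a dKO line 3, Elavl2 was at -1.45 ± 0.30, Focad at -0.62 ± 0.08, Dmrta1 at -0.52 ± 0.22 and Haus6 at -0.30 ± 0.07. Focad was thus called lower in all 3 Nf1/Cdkn2a dKO lines in this fit, by less than a halving each time, and Klhl9, Mllt3 and Plin2 in none of them.

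Over the whole neighborhood, the 26 tested genes within 5 Mb of Cdkn2a, other than Cdkn2a, had a median log2 ratio of 0.30 in Nf1/Cdkn2a dKO line 1 (cultures 0.24 to 0.34), 0.10 in line 2 (-0.02 to 0.13) and 0.09 in line 3 (-0.11 to 0.09). In the Nf1/p53 dKO lines the medians were -0.11, -0.30 and 0.05. The lowest was that of Nf1/p53 dKO line 2, at 81.0% of the reference, where 18 of the 26 genes were below the reference and 5 below 0.5 of it. In the Nf1/Cdkn2a dKO lines 7, 12 and 11 of the 26 were below the reference and 2, 4 and 4 below 0.5 of it. In Nf1/p53 dKO lines 1 and 3 these counts were 17 and 13 below the reference and 0 and 4 below 0.5 of it. All these counts used log2(CPM + 0.5) and all 26 genes, with no minimum level. A gene with a reference of 0.5 CPM or less could therefore not be counted as below 0.5, even without reads. Scaled to raw totals, or with Nf1/p53 dKO line 3 left out of the reference, the median of Nf1/Cdkn2a dKO line 3 turned negative (-0.05 and -0.04). Within 10 Mb in place of 5 Mb, the medians of Nf1/Cdkn2a dKO lines 2 and 3 were both negative (-0.031 and -0.018). The 8 genes alone had medians of 0.07, -0.35 and -0.08 in the Nf1/p53 dKO lines, against 0.21, 0.01 and -0.11 in the Nf1/Cdkn2a dKO lines.

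For scale, some whole chromosomes did stand low in these data. In Nf1/p53 dKO line 3 the median gene was at 64.8% of the reference on chromosome 1 (901 genes), 67.0% on chromosome 12 (519 genes) and 68.9% on chromosome 16 (467 genes). Chromosome 4, with 947 genes tested, was at 100% to 101% in the 3 Nf1/Cdkn2a dKO lines and at 91.6% to 110% in the Nf1/p53 dKO lines. DNA copy number was not measured in the files used here.

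**Figure D4:**
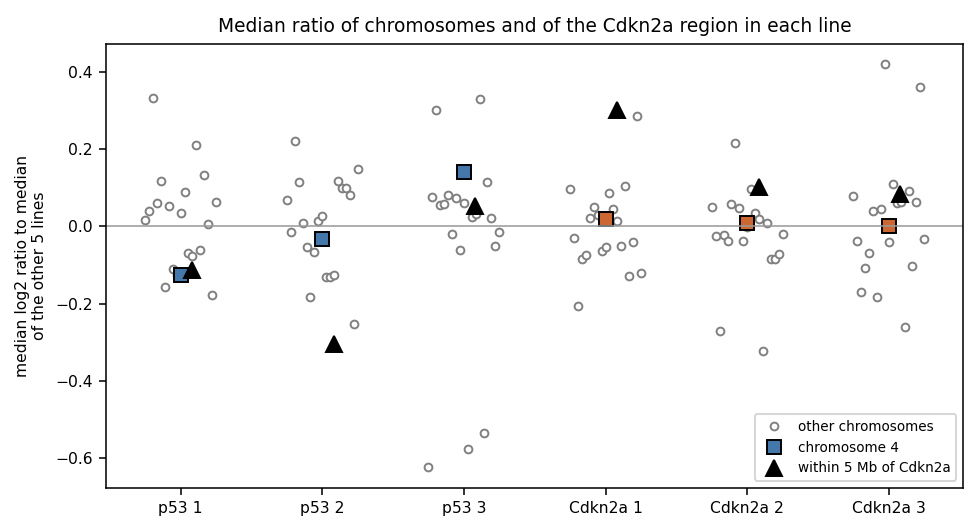
Median log2 ratio to the median of the other 5 lines (vertical axis) for every autosome and X (open circles), chromosome 4 (squares, blue for Nf1/p53 dKO and orange for Nf1/Cdkn2a dKO) and the 26 genes within 5 Mb of Cdkn2a (triangles), in each line. Chromosomes 1, 12 and 16 of Nf1/p53 dKO line 3 lie between -0.625 and -0.537, while the Cdkn2a neighborhood lies between 0.09 and 0.30 in the Nf1/Cdkn2a dKO lines and is lowest, at -0.30, in Nf1/p53 dKO line 2.

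At the locus itself, Cdkn2a was 363, 279.2 and 42.9 CPM in Nf1/p53 dKO lines, against 168.8, 391.6 and 284.6 CPM in Nf1/Cdkn2a dKO lines. Cdkn2b, 11.6 kb from Cdkn2a, was 50.5, 45.6 and 6.16 CPM in Nf1/p53 dKO lines. In Nf1/Cdkn2a dKO lines it was 68.0, 69.1 and 63.5 CPM (log2 fold change 0.97 ± 0.67, edgeR adjusted p = 0.437). Mtap, which lies between Klhl9 and Cdkn2a, was 327 to 527 CPM over all 6 lines. Gm12606, a noncoding RNA gene 1.1 kb from Cdkn2a toward Mtap, was 3.48, 0.17 and 9.99 CPM in Nf1/p53 dKO lines. In Nf1/Cdkn2a dKO lines Gm12606 was 13.83, 0.53 and 0.91 CPM (log2 fold change 0.16 ± 1.56, edgeR adjusted p = 0.964). It was thus low in lines of both genotypes, and the cause was not tested. A low stretch was seen at the locus in a line where it was not targeted: in Nf1/p53 dKO line 3, Cdkn2a was at 15.1% and Cdkn2b at 9.69% of the median of the other lines, with Mtap at 145%. There the flanking Klhl9 and Dmrta1 were at 94.7% and 92.2%, so that the low values did not extend to the nearest of the 8 genes on either side.

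The 8 levels did not move as a block. Over the 6 lines, 14 of the 28 pairs of genes had a positive Pearson r of log2 CPM, and the median r was -0.01. The highest was 0.82 for Focad and Haus6 and the lowest -0.94 for the adjacent Mllt3 and Focad. These are descriptions over 6 points that share their library scaling. The ratio of the highest to the lowest line was 20.8 for Dmrta1 and 19 for Elavl2, and between 1.35 (Haus6) and 3.3 (Plin2) for the others. Its median over all 8 was 3.04, beside 2.17 over all genes. Over the 18 cultures, the genes with the most similar log2 CPM were Bmp2 for Dmrta1 (r = 0.974), Miga1 for Elavl2 (0.948), Fgf14 for Mllt3 (0.983), Nup205 for Focad (0.976), Fbn1 for Hacd4 (0.956), Atad1 for Klhl9 (0.949), Rps6ka1 for Plin2 (0.985) and Xpo1 for Haus6 (0.92). Of these 8 similar genes, 1 (Rps6ka1) lies on chromosome 4, as do 947 of all 15207 tested genes. Each was picked for the highest r among all tested genes, and the 18 cultures stand for 6 lines only, so these r values are descriptions too.

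Genes of the wider region and partners of the 8 were taken from lists of the region and of known partners. Of 42 named genes of the region, which include the 8 and Cdkn2a, Cdkn2b and Mtap, 35 were tested, 0 were called higher and 1 lower between genotypes, with a median log2 fold change of 0.03. The 1 called was Tek, the angiopoietin receptor, at 0.412, 0.566 and 1.08 CPM in Nf1/p53 dKO lines, against 0.0642 to 0.0782 CPM in Nf1/Cdkn2a dKO lines (log2 fold change -3.23 ± 0.55, edgeR adjusted p = 0.0465). It rested on few reads, 4 or 5 a line in the latter, and was lost without any 1 of the 6 lines (edgeR adjusted p = 0.0606 to 0.155). Tek is also an endothelial marker. Pecam1, another, was 0.425, 0.382 and 0.595 CPM in Nf1/p53 dKO lines, against 0.257, 0.173 and 0.141 CPM in Nf1/Cdkn2a dKO lines, without overlap (log2 fold change -1.29 ± 0.45, edgeR adjusted p = 0.162). Cdh5, the remaining endothelial marker, had a fold change of the other sign (1.61 ± 0.67, edgeR adjusted p = 0.221), and the part of endothelial cells in the Tek difference was not tested. The lowest fold change was that of Adamtsl1, an extracellular matrix gene 2846.1 kb from Cdkn2a on the Haus6 side. It was 20.6, 49.8 and 20.2 CPM in Nf1/p53 dKO lines, against 2.45, 0.346 and 1.85 CPM in Nf1/Cdkn2a dKO lines (log2 fold change -4.29 ± 0.80, edgeR adjusted p = 0.0525; DESeq2 on the lines, adjusted p = 3.51e-08). Rraga and Haus6, the tested genes that follow Adamtsl1 in map order, were at 92.1 to 111.6 and 46.0 to 58.0 CPM in the same Nf1/Cdkn2a dKO lines. On its other side, Bnc2, Gm12415 and Cntln had log2 ratios of -1.40, -1.415 and -0.63 in Nf1/Cdkn2a dKO line 2. Adamtsl1 was at -4.61 in that line, and Gm12418, between Cntln and Adamtsl1 by end position, was at 0.21 with 0.29 CPM. In Nf1/Cdkn2a dKO lines 1 and 3, Cntln was at -0.12 and 0.18. A shared cause of the low values in line 2 was not tested. The highest fold change of the region was that of Dmrta1.

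Of the partner genes elsewhere in the genome, 1 was called between genotypes. Of the 7 other augmin subunits, 0 were called in either direction, with Haus3 lowest (log2 fold change -0.58) and Haus2 highest (0.22). Among 7 genes of the super elongation complex that binds Mllt3, 1 was called higher and 0 lower. It was Ell2, an elongation factor, at 40.9, 24.4 and 31.9 CPM in Nf1/p53 dKO lines, against 76.4, 85.7 and 72.9 CPM in Nf1/Cdkn2a dKO lines (log2 fold change 1.27 ± 0.21, edgeR adjusted p = 0.0465). The call was kept without Nf1/p53 dKO line 1 and lost without any other line (edgeR adjusted p = 0.0808 to 0.144). Aff1 was the lowest of them (-0.37). The 3 other dehydratase genes had 0 called (Hacd2 -0.25 to Hacd1 0.32). The perilipins had 0 of 2 tested genes called (Plin4 -1.18, Plin3 -0.01), and of the Elav family only Elavl1 was tested (0.25, not called). The 3 Klhl9 partners (Klhl13 -0.94 to Klhl21 0.08) and the 3 genes of the SKI complex (Skiv2l 0.14 to Wdr61 0.18) had 0 called.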

How the data were processed

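RNA-seq was performed on 18 cultures of 6 MPNST cell lines, 3 per line. The values deposited by the authors are raw counts of reads for each gene, not normalized. The submitters' processing notes name CASAVA, STAR 2.5, DESeq2 1.14.1, GRCm38 and mm10; the counting tool, strand setting and annotation release are not given in the sources used here. All count columns were used. Of 35275 genes, 34490 were placed by GENCODE M21 (GRCm38).

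The cultures of each line were summed, genes were kept with filterByExpr (minimum count 10, minimum total count 15; 15207 genes), TMM factors were applied and lines were tested by the edgeR quasi-likelihood method (two-sided, Benjamini-Hochberg adjusted; edgeR 4.0.16, limma 3.58.1, DESeq2 1.42.0, R 4.3.3; plots with matplotlib 3.10.9). A gene was called at an adjusted p below 0.05. Each line was tested against the other 5, the lone line being assumed to vary like the others. Ratios to the median of the other 5 lines used genes with a median of at least 1 CPM for the shares below 0.5 and 0.1. The medians and counts along the chromosome used log2(CPM + 0.5), without that minimum. SEs are fold changes divided by the square root of F. Library totals set the precision. The steps were tested on simulated data.

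The 8 genes and all lists were chosen with earlier results of these data known. The genes named are the 8, the targets and Cdkn2b and Mtap, the highest, lowest and called genes of the region list, the highest and lowest of each partner list, and the most similar gene of each of the 8. Tusc1, Gm12606, the genes named on either side of Adamtsl1 and the markers named beside a result were chosen after their values were seen. No 2 cultures agreed within sampling noise (chi-square per degree of freedom 3.50 to 27.1). Alternatives were other scalings, filters, tools, references and windows, and each line left out. The reference without Nf1/p53 dKO line 3 was chosen after seeing the data. Sequences are from RefSeq (GRCm38.p6). 1 marker of the lists is not reported here.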

Additional observations from a re-analysis of the deposited data

How the results depend on the processing

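Between genotypes, 0 of the 8 genes were called under RLE or upper-quartile scaling, without a filter and with at least 10 counts in every line, and 0 to 1 with a line left out (Mllt3, without Nf1/p53 dKO line 1). The count was 3 with DESeq2 on the 6 lines, 2 with limma-voom, 5 with edgeR and 6 with DESeq2 on the 18 cultures. All genes called, 274 as reported, were 2171 with DESeq2 on the lines, 2173 with limma-voom, 6096 and 6896 with edgeR and DESeq2 on the cultures, and 0 to 172 with a line left out (0, 2 and 23 without Nf1/Cdkn2a dKO lines 1, 2 and 3; 172, 27 and 107 without Nf1/p53 dKO lines 1, 2 and 3). No filter gave 411. Lines of the same number did not deviate together (correlations -0.13 to -0.083), so the numbers pair nothing. With the line number as replicate block, 0 of the 8 and 0 of all genes were called by edgeR (2740 at an unadjusted p under 0.05, 3400 without the block). That block also ended the calls of Trp53, Tek and Ell2 (edgeR adjusted p = 0.0965, 0.13 and 0.129). With the culture number as replicate block the counts were 5 and 5681. Fold changes turned for Elavl2 and Cdkn2a without Nf1/p53 dKO line 3 (0.14 and -0.18) and for Cdkn2a and Mtap without Nf1/Cdkn2a dKO line 2 (-0.003 and -0.069), none of them called, with ranges over the lines left out of -1.05 to 0.14, -0.18 to 0.81 and -0.069 to 0.34 for Elavl2, Cdkn2a and Mtap; no other fold change of the 8 genes turned. The cause was not tested.

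Counts lower in a line stayed at 0 under every alternative except the 18 cultures (2, 4 and 4 in Nf1/p53 dKO lines 1 to 3, 1, 3 and 4 in Nf1/Cdkn2a dKO lines 1 to 3). Counts below 0.5 moved to 1 in Nf1/p53 dKO line 1 and 2 in Nf1/Cdkn2a dKO line 3 without Nf1/p53 dKO line 3 as reference. With the genotype's other lines as reference they moved to 1, 0 and 2 in Nf1/p53 dKO line 3 and Nf1/Cdkn2a dKO lines 2 and 3. Culture 2 of Nf1/Cdkn2a dKO line 2 alone gave 0.

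Medians around Cdkn2a moved by more than the SD of the cultures as follows. On raw totals they were -0.013 and -0.23 in Nf1/p53 dKO lines 1 and 2 and 0.23 and -0.049 in Nf1/Cdkn2a dKO lines 1 and 3. Within 2 Mb they were -0.19 and -0.38 in the former and 0.53 and 0.20 in the latter. Within 10 Mb they were -0.084 in Nf1/p53 dKO line 2 and 0.083 and -0.031 in Nf1/Cdkn2a dKO lines 1 and 2. Without Nf1/p53 dKO line 3 as reference they were -0.20 in Nf1/p53 dKO line 2 and 0.24 and -0.038 in Nf1/Cdkn2a dKO lines 1 and 3. Depth limits Elavl2 and Dmrta1, whose lowest libraries held 4 and 10 counts. For Elavl2 the 95% interval of the log2 fold change, -2.87 to 1.82, covers more than a doubling in either direction.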

Other observations

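Among the 26 genes within 5 Mb of Cdkn2a, chosen after their values were seen, 2 genes between Klhl9 and Mtap had fold changes of the same sign as Mllt3 and Dmrta1. Wincr1 was 20.5, 11.4 and 9.42 CPM in Nf1/p53 dKO lines, against 36.5, 30.1 and 24.1 CPM in Nf1/Cdkn2a dKO lines (log2 fold change 1.13 ± 0.34, edgeR adjusted p = 0.12). Gm12602 was 3.08, 3.82 and 3.46 CPM in the former and 6.30, 6.04 and 9.10 CPM in the latter (log2 fold change 1.05 ± 0.28, edgeR adjusted p = 0.103). Bnc2, a zinc finger gene 4599.2 kb from Cdkn2a, was 33.2 to 35.6 CPM in Nf1/p53 dKO lines, against 12.3 to 25.5 CPM in Nf1/Cdkn2a dKO lines (log2 fold change -0.96 ± 0.29, edgeR adjusted p = 0.122). For each of the 3 the groups did not overlap and the difference did not pass the test.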
